A study of Homo sapiens with 8 samples.

Results

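The 10 genes described here code for secreted inflammatory signals of the airway lining: the neutrophil-attracting chemokines CXCL8, CXCL1 and CXCL2, the monocyte-attracting chemokine CCL2, the interleukin-1 pair IL1A and IL1B, the gp130-signalling cytokines IL6, LIF and IL11, and IL32. They were chosen by name from the 58735 genes in the files. All 10 passed the filter on low counts that left 18242 genes for testing. RNA was sequenced from BEAS-2B cells, an immortalised human bronchial epithelial line, grown on collagen-coated inserts. With the medium over the cells removed, cultures received 1 ppm formaldehyde (FA) or clean air (CA) for 2 h and were harvested after 6 h of recovery. After depletion of ribosomal RNA, each RNA pool was divided into an input library (IN) and a pulled-down library (IP). The latter held RNA bound by an antibody to 8-oxo-7,8-dihydroguanine (8-oxoG), the common oxidised form of guanine. The 8 libraries thus formed 4 groups of 2, CA_IN, FA_IN, CA_IP and FA_IP, and came from 4 RNA pools. The 2 libraries of a group carry the numbers 1 and 3, and clean air was run in parallel with formaldehyde in exposures on several days. The sources used here do not tie a replicate number to an exposure day. All cultures were of this single line, with no other airway cell type. The study describes the 2 of a group as biological replicates, and p-values measure only the spread between these samples. Fits that do not pair libraries by pool take the spread from all 8 libraries and count IN and IP of 1 pool as separate samples. Fits that pair by pool measure the spread of the IP over IN ratio between the pools of a treatment.

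Total expected counts were 26152651 to 45144392 in the input libraries and 16883500 to 23658012 in the pulled-down libraries. All 8 epithelial markers examined (KRT5, KRT7, KRT8, KRT18, KRT19, EPCAM, CDH1 and TP63) had at least 10 counts in every library, with summed levels of 3836 to 6444 CPM (the counts of a gene scaled to a common library total). The 7 leukocyte markers summed to 5.31 to 8.50 CPM. The pan-leukocyte gene PTPRC never exceeded 2.00 counts, and only CD14 and CSF1R reached 10 counts in a library. Endothelial markers summed to 1.52 to 2.17 CPM and fibroblast markers to 10.0 to 14.8 CPM.

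Cytokine genes of this kind are kept low in resting epithelium and are switched on within hours by injury, microbial products or interleukin-1 itself. Transcription factors of the NF-kappaB and AP-1 families bind close to their start sites, and AU-rich stretches in the messenger RNA cause rapid decay once the stimulus ends. Chemokines act on G protein-coupled receptors of leukocytes, the interleukin-1 pair on IL1R1 with IL1RAP, and IL6, LIF and IL11 on receptors that share the signalling chain IL6ST. IL1A is active in its precursor form and is released by damaged cells, whereas IL1B must be cut by caspase-1.

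Promoters from RefSeq are shown for CXCL8, IL6, CXCL1 and CXCL2, since these 4 genes varied together between libraries and each held an NF-kappaB-type match. That choice was made after their values were seen, and it fixes both traits in these 4 genes. A link between the matches and the shared variation was not tested. Each is given 5′ to 3′ along the gene's strand (GRCh38.p14) from 250 bases before the RefSeq start, ending where an exon of the gene begins in GENCODE. Capitals mark GGNNTTTCC, an NF-kappaB-type pattern, and TGANTCA, the AP-1 pattern, searched on both strands.
CXCL8 (chr4:73740319-73740518, plus strand): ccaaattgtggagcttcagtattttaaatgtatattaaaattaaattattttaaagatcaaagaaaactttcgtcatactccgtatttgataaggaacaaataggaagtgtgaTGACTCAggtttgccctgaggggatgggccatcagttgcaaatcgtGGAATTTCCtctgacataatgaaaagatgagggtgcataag
IL6 (chr7:22726950-22727146, plus strand): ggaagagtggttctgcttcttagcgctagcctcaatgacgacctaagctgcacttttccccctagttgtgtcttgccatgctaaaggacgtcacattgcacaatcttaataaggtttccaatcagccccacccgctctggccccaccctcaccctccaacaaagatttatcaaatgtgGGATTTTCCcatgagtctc
CXCL1 (chr4:73869143-73869392, plus strand): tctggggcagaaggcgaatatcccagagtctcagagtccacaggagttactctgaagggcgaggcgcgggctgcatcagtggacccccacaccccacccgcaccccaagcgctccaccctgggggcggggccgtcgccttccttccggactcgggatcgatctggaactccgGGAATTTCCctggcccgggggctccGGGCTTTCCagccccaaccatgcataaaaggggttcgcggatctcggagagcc
CXCL2 (chr4:74099197-74099445, minus strand): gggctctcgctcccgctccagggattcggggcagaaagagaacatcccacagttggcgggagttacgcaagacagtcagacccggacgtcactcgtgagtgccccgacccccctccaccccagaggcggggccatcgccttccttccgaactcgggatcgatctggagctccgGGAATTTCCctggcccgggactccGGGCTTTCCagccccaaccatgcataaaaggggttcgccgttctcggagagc
The 2 capitalised NF-kappaB-type matches of CXCL1 and CXCL2 had the same letters in both genes, GGAATTTCC followed by GGGCTTTCC. CXCL8 also held GGAATTTCC, whereas IL6 held GGATTTTCC. Only CXCL8 of these 4 held an AP-1 match, TGACTCA. Of 8 members with a promoter sequence in the table, 5 held GGNNTTTCC in the 250 bases, against 5.48% of all 35116 promoters. The fifth was IL32, at 1 of its 2 starts, with matches 98 and 68 bases before it that lie past the gene's GENCODE start. TGANTCA was found for CXCL8, IL1A and IL11, against 6.57% of all promoters, and IL1B held neither pattern. A member counted if any of its promoters matched (10 promoters for the 8 members), whereas both percentages count each promoter. No promoter sequence was at hand for CCL2 and LIF, so these were not searched.

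The chemokine genes CXCL8 (ENSG00000169429, chr4:73740519-73743716) and CXCL1 (ENSG00000163739, chr4:73869393-73871308) lie on the plus strand of chromosome 4, and CXCL2 (ENSG00000081041, chr4:74097040-74099196) on the minus strand of the same region. CCL2 (ENSG00000108691) lies at chr17:34255274-34257208. IL1A (ENSG00000115008, chr2:112773925-112784493) and IL1B (ENSG00000125538, chr2:112829751-112836816) are neighbours on the minus strand of chromosome 2. IL6 (ENSG00000136244) lies at chr7:22725884-22732002, LIF (ENSG00000128342) at chr22:30240453-30246759, IL11 (ENSG00000095752) at chr19:55364382-55370463 and IL32 (ENSG00000008517) at chr16:3065297-3082192. All are protein-coding, and coordinates are those of GENCODE 44 on GRCh38. IL6 and LIF each overlap 2 genes on the opposite strand (STEAP1B and IL6-AS1, LIF-AS1 and LIF-AS2), and IL32 overlaps a gene on each strand, so reads there cannot be assigned to a strand from these counts. Gene sums were whole numbers within 0.02 in 75 of 80 cases, the exceptions being IL6, CXCL2 and LIF, so few reads were divided with other genes.

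In clean-air input the interleukin-1 pair and CXCL8 had the highest levels per length of transcript. IL1B, the caspase-1-dependent form, was measured at 4.52 and 5.83 TPM (a share of the library's transcripts corrected for transcript length, recomputed here) in replicates 1 and 3, a mean of 5.18 ± 0.928 (SD, n = 2). IL1A was at 3.47 and 6.25 TPM (4.86 ± 1.96, n = 2). CXCL8, the main neutrophil chemokine of human airway epithelium, was at 1.71 and 5.53 TPM (3.62 ± 2.70, n = 2). These 3 filled the first 3 places in every library, with IL1B or IL1A first and CXCL8 at the third place.

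Below them CXCL1 was at 0.827 and 3.45 TPM, IL6 at 0.437 and 2.77 TPM, and LIF, a cytokine of the IL6 family, at 1.30 and 1.80 TPM. CXCL2 was at 0.780 and 1.76 TPM, IL11 at 0.749 and 0.928 TPM, CCL2 at 0.233 and 1.35 TPM and IL32 at 0.955 and 0.581 TPM. Each member's range over the 2 libraries overlapped that of the next in the order of means, so no neighbours were separated beyond their spread. The median of all genes tested was 1.69 TPM, and the members ran from the 38.6th percentile (IL32) to the 71.1st (IL1B). Summed over the 10 genes, clean-air input held 15.0 and 30.3 TPM, and formaldehyde input 17.7 and 30.8 TPM. A short transcript held 18.03% to 19.84% of TPM in the input libraries and 28.94% to 31.62% in the pulled-down ones, so TPM was compared between genes of a library and CPM scaled by the trimmed mean of M-values (TMM) between libraries.

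**Figure D1:**
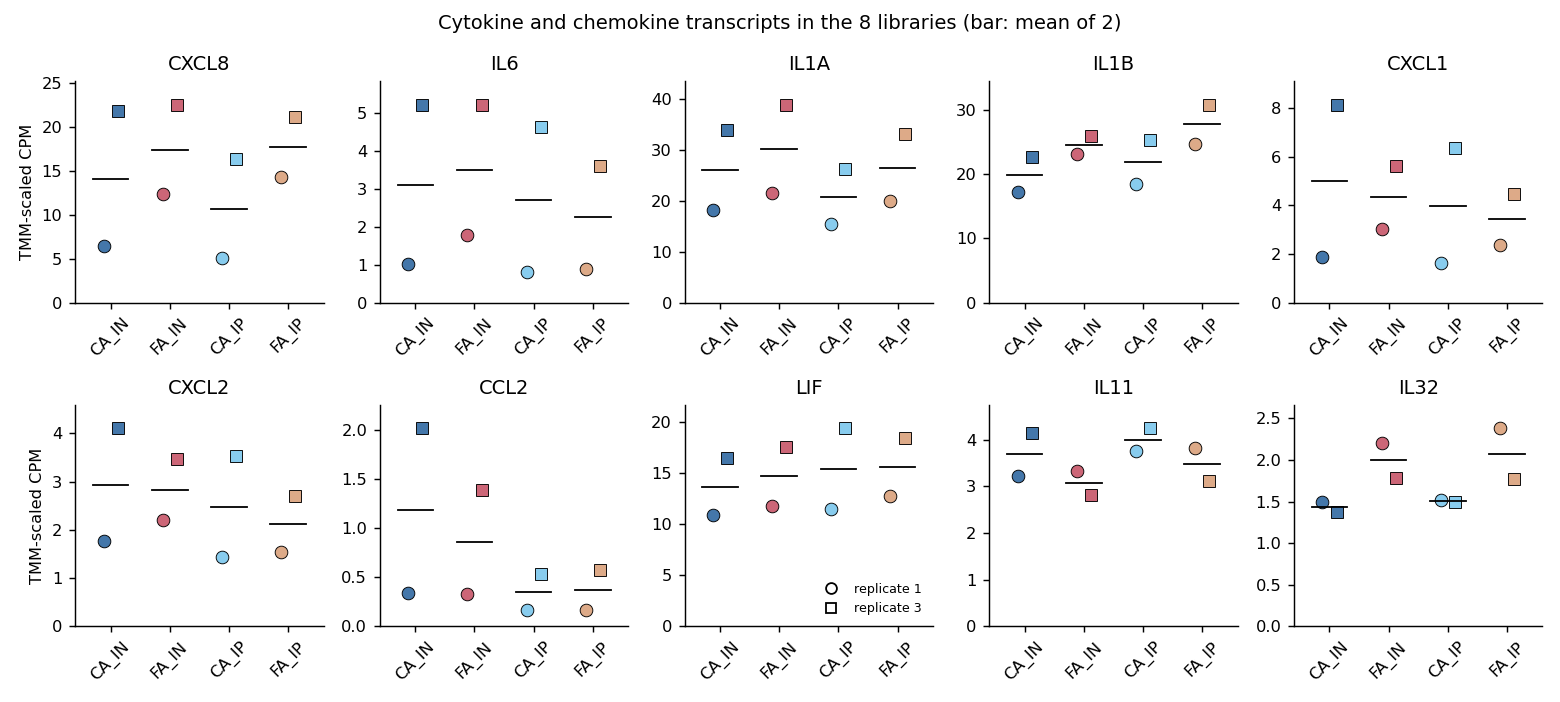
TMM-scaled CPM (y axis, from 0, a scale for each gene) of the 10 members in the groups CA_IN, FA_IN, CA_IP and FA_IP (x axis), with circles for replicate 1, squares for replicate 3 and bars for the mean of the 2 libraries. For CXCL8, IL6, IL1A, IL1B, CXCL1, CXCL2, CCL2 and LIF the square lies above the circle in each of the 4 groups, as in IL6 in CA_IN at 1.01 and 5.22 CPM.

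For 8 of 10 members the level in input was higher in the library numbered 3 than in that numbered 1, in both treatments. IL6 was at 1.01 and 5.22 CPM in CA_IN and at 1.79 and 5.23 CPM in FA_IN. CCL2 was at 0.345 and 2.02 CPM in CA_IN and at 0.333 and 1.39 CPM in FA_IN. CXCL1 was at 1.88 and 8.14 CPM in CA_IN and at 3.04 and 5.61 CPM in FA_IN. In these 3 genes both libraries numbered 3 lay above both numbered 1, whatever the exposure. The same held for CXCL8, at 6.39 and 21.8 CPM in CA_IN and at 12.3 and 22.5 CPM in FA_IN. It held as well for IL1A, at 18.2 and 33.9 CPM in CA_IN and at 21.4 and 38.8 CPM in FA_IN, and for CXCL2, at 1.77 and 4.10 CPM in CA_IN and at 2.20 and 3.47 CPM in FA_IN. LIF, at 10.9 and 16.5 CPM in CA_IN and 11.8 and 17.6 CPM in FA_IN, was divided in the same way. Over all genes tested 30.4% were higher in replicate 3 within both input groups. The share of all genes with both libraries numbered 3 above both numbered 1 was not counted.

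IL1B differed less, with 17.2 and 22.6 CPM in CA_IN and 23.2 and 25.9 CPM in FA_IN. IL11, a cytokine tied to tissue remodelling, was at 3.22 and 4.15 CPM in CA_IN and at 3.33 and 2.81 CPM in FA_IN. IL32 was at 1.49 and 1.37 CPM in CA_IN and at 2.20 and 1.79 CPM in FA_IN. In neither IL11 nor IL32 did the libraries numbered 3 lie above those numbered 1 throughout.

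Across the 4 input libraries the highest level exceeded the lowest by 6.08-fold for CCL2, 5.18-fold for IL6, 4.32-fold for CXCL1, 3.53-fold for CXCL8, 2.32-fold for CXCL2 and 2.13-fold for IL1A. The median over all genes tested was 1.34-fold. Each of these 6 members spanned more than at least 90.3% of all genes, while LIF, IL32, IL1B and IL11 spanned 1.48- to 1.62-fold. The pulled-down libraries, made from the same 4 RNA pools, differed in the same direction between replicate numbers. Replicate 3 exceeded replicate 1 in IL6 by 5.77-fold in CA_IP and 4.09-fold in FA_IP, and in CXCL8 by 3.24-fold and 1.48-fold. In all, 8 of 10 members were higher in replicate 3 in each of the 4 groups, against 18.2% of all genes tested. This count was made after the values were seen and has no test.

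The mean log2 ratio of replicate 3 over replicate 1 in input was 2.09 for CCL2, 1.90 for IL6, 1.47 for CXCL1, 1.31 for CXCL8, 0.91 for CXCL2 and 0.87 for IL1A. It was 0.58 for LIF, 0.28 for IL1B, 0.06 for IL11 and -0.20 for IL32. The median was 0.89 over the members and -0.02 over all genes tested. Of the 5 members with a GGNNTTTCC match, IL6 had 1.90, CXCL1 1.47, CXCL8 1.31, CXCL2 0.91 and IL32 -0.20. CCL2 and LIF were not searched, and a link with the matches was not tested. Epithelial markers summed to 3836 and 4409 CPM in CA_IN and 4334 and 4832 CPM in FA_IN for replicates 1 and 3, and leukocyte markers to 5.31 and 6.20 CPM and to 5.70 and 7.43 CPM. Among single markers TP63, a basal cell factor, was at 27.1 and 50.5 CPM in CA_IN and at 32.0 and 58.1 CPM in FA_IN. The basal keratin KRT5 was at 711 and 952 CPM in CA_IN and at 742 and 1075 CPM in FA_IN. CDH1, the epithelial cadherin, was at 140 and 122 CPM in CA_IN and at 121 and 128 CPM in FA_IN. KRT19 was at 392 and 519 CPM in CA_IN and at 507 and 620 CPM in FA_IN. The markers thus differed from each other. TP63, KRT5, KRT18 and KRT19 were higher in replicate 3 of both groups, whereas KRT7, KRT8, EPCAM and CDH1 were not higher in both. The part of these differences between the cultures in the members' ratios was not tested, and in bulk RNA fewer expressing cells and less RNA per cell cannot be told apart.

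**Figure D2:**
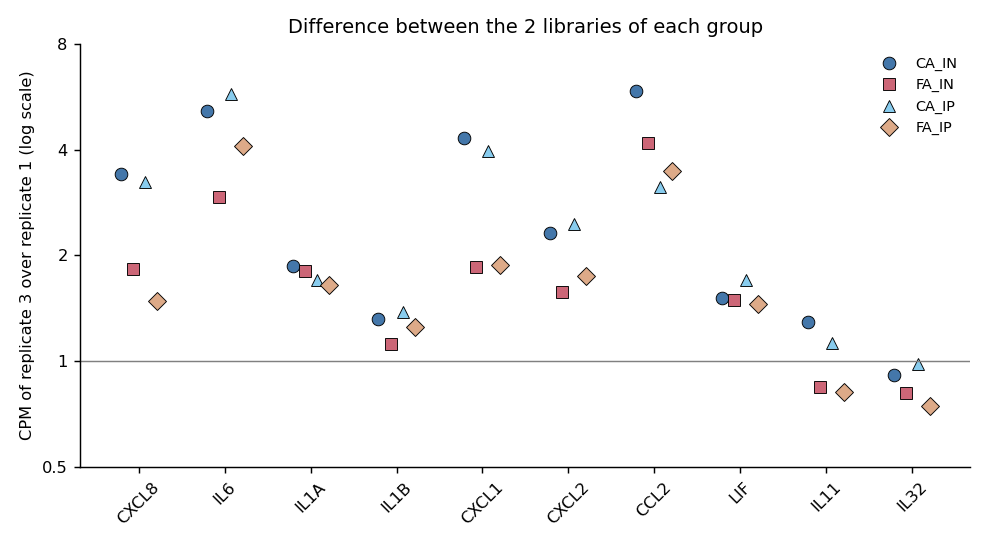
Ratio of CPM in replicate 3 to replicate 1 (y axis, log scale) within each of the 4 groups for the 10 members (x axis), 1 point a group. The ratios lie above 1 for 8 members in every group, reaching 5.87 for CCL2 in CA_IN and 5.77 for IL6 in CA_IP, whereas those of IL32 lie between 0.743 and 0.983.

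Formaldehyde against clean air in input RNA asked whether the exposure changed these signals 6 h later. No member was called at an adjusted p under 0.05 (edgeR quasi-likelihood test adjusted over all 18242 genes), and none had an unadjusted p under 0.05, against 3.35% of all genes. Over all genes 0.00548% were called, a single gene that fell. DESeq2 on the same libraries called no member either. The fitted log2 fold changes had a median of 0.16 over the members and 0.02 over all genes.

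The FA_IN and CA_IN libraries did not overlap for IL32 and IL1B. IL32, a proinflammatory cytokine with many spliced forms, was 1.43 ± 0.0896 CPM in CA_IN and 2.00 ± 0.291 CPM in FA_IN (SD, n = 2), a log2 fold change of 0.47 with a standard error of 0.24 and an adjusted p of 0.945. IL1B was 19.9 ± 3.87 CPM in CA_IN and 24.6 ± 1.91 CPM in FA_IN (SD, n = 2), a log2 fold change of 0.31 with a 95% interval of -0.14 to 0.75 and an adjusted p of 0.945. In these 2 of 10 genes both FA_IN libraries lay above both CA_IN libraries, as they did in 18.1% of all genes tested, and no member had both below, against 15.8% of all genes.

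For the chemokines the intervals of this fit, which does not pair libraries, were wide. CXCL8 had a log2 fold change of 0.32 with an interval of -1.09 to 1.72, CXCL1 -0.19 with -1.83 to 1.45, CXCL2 -0.02 with -1.15 to 1.10 and CCL2 -0.37 with -2.28 to 1.55. Among the gp130 cytokines IL6 had a log2 fold change of 0.22 with an interval of -1.86 to 2.29, LIF 0.11 with -0.61 to 0.83 and IL11 -0.27 with -0.76 to 0.22. IL1A had 0.21 with -0.68 to 1.11.

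Taken within a replicate number, the ratios of FA_IN over CA_IN differed most for CXCL1, CXCL8 and IL6. CXCL8 had a log2 ratio of 0.95 in replicate 1 and 0.05 in replicate 3. IL6 had 0.82 and 0.00, and CXCL1 had 0.69 and -0.54. For each of these 3 genes the clean-air library numbered 1 was the lowest of the 4 input libraries. IL1A gave 0.23 and 0.19, LIF 0.12 and 0.09, and IL1B 0.44 and 0.20, so these 3 lay above 0 in both. In all, 6 members were higher in FA_IN in both replicate numbers, 1 (CCL2) lower in both, and 3 were divided, against 33.5% of all genes higher in both and 28.5% lower in both. IL6 is among the 6 with almost equal levels in replicate 3, 5.22 CPM in CA_IN and 5.23 CPM in FA_IN. Without the clean-air library numbered 3 the fitted CXCL8 value was 1.45, and without the clean-air library numbered 1 it was -0.32, neither called. For IL6 the corresponding extremes were 1.81 without the clean-air library numbered 3 and -0.81 without the formaldehyde library numbered 3. Without the clean-air library numbered 3, CXCL1 and CCL2 had 1.21 and 1.36, also of the other sign and not called.

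**Figure D3:**
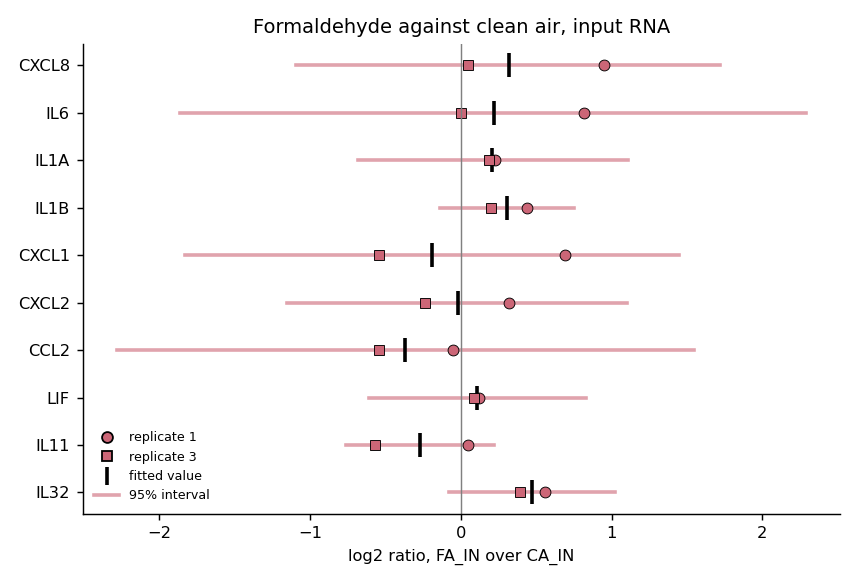
Log2 ratio of FA_IN over CA_IN (x axis) for the 10 members, with circles and squares for the ratios within replicate numbers 1 and 3, ticks for the fitted value and lines for its 95% interval. Every interval includes 0, and the circle lies to the right of the square in all 10 genes, by the most in CXCL1 (0.69 and -0.54).

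Pull-down against input compared the antibody-bound RNA with the RNA it was drawn from. A lower ratio means that the transcript held a smaller share of the bound RNA. In clean air no member was called in the fit without pairing, where 1.91% of all genes were (27 higher and 322 lower, 0.148% and 1.77%), and none had an unadjusted p under 0.05, against 12.6% of all genes. With library size in place of TMM, 821 genes were higher and 336 lower. Because IP and IN of a culture came from 1 RNA pool, the fit with the pool as a block was also made. In it CCL2, CXCL8 and IL1A were called lower, 3 of 10 members, against 5.85% of all genes lower, 11.6% higher and 17.4% in either direction.

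CCL2 held 15.0 and 74.0 counts in CA_IN and 4.00 and 11.0 counts in CA_IP for replicates 1 and 3. In CPM these were 0.345 and 2.02 in input and 0.169 and 0.531 in pull-down, lower in both pools. The log2 fold change with the pool block was -1.67 with a standard error of 0.43 and an adjusted p of 0.00815 (edgeR), or 3.19-fold lower. Without pairing it was -1.75 with an adjusted p of 0.563. These are small counts, and the pulled-down ones number under 12 a library.

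CXCL8 was at 6.39 and 21.8 CPM in CA_IN and at 5.03 and 16.3 CPM in CA_IP, lower in both pools by log2 ratios of -0.34 and -0.42. The pool-blocked log2 fold change was -0.39 with a standard error of 0.11 and an adjusted p of 0.0130. IL1A was at 18.2 and 33.9 CPM in CA_IN and at 15.4 and 26.2 CPM in CA_IP, with a pool-blocked log2 fold change of -0.31, a standard error of 0.08 and an adjusted p of 0.0108. Scaling by library size in place of TMM moved the median of all genes by 0.15 in this comparison. The pool-blocked CXCL8 and IL1A values were then -0.25 and -0.16 and no longer called (adjusted p = 0.141 and 0.209), IL1B at 0.28 and LIF at 0.31 were called higher (adjusted p = 0.0210 and 0.0238), and CCL2 at -1.53 was still called lower (adjusted p = 0.0129). Over all genes the pool-blocked split was 2112 higher and 1067 lower with TMM and 4472 higher and 616 lower with library size. Without the clean-air pool numbered 3 no member was called. The group was then a single pool, assumed to vary like the others, and the log2 fold changes were -1.04 for CCL2, -0.38 for CXCL8 and -0.27 for IL1A.

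The other members had smaller or less certain ratios in clean air. CXCL1 had a pool-blocked log2 fold change of -0.32, CXCL2 -0.25 and IL6 -0.21, while LIF had 0.16, IL1B 0.13, IL11 0.13 and IL32 0.08. None of these was called with TMM. All 4 chemokines, IL6 and IL1A lay below 0 in both pools, and IL1B, LIF, IL11 and IL32 above 0 in both. Over all genes 32.0% were lower in both pools and 38.4% higher in both.

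After formaldehyde, again no member was called without pairing, where 1.50% of all genes were (6 higher and 268 lower, 0.0329% and 1.47%), and none had an unadjusted p under 0.05, against 9.10% of all genes. With library size 318 genes were higher and 243 lower. With the pool block 1 member was called, IL6, which was lower, against 4.60% of all genes lower, 5.45% higher and 10.1% in either direction. IL6 was at 1.79 and 5.23 CPM in FA_IN and at 0.885 and 3.62 CPM in FA_IP, with a pool-blocked log2 fold change of -0.65, a standard error of 0.20 and an adjusted p of 0.0353. With library-size scaling it was -0.50 with an adjusted p of 0.0647, and IL1B at 0.34 was called higher (adjusted p = 0.00790). That scaling turned the pool-blocked split over all genes from 995 higher and 840 lower to 3989 higher and 564 lower. IL6 was not called without the formaldehyde pool numbered 1 (log2 fold change -0.53) or that numbered 3 (-0.99), each of which left a single pool in the group. CCL2 held 8.00 and 48.0 counts in FA_IN and 3 and 14 counts in FA_IP, a pool-blocked log2 fold change of -1.20 with an adjusted p of 0.0954. CXCL8 was at 12.3 and 22.5 CPM in FA_IN and at 14.3 and 21.1 CPM in FA_IP, higher in the pool numbered 1 and lower in the pool numbered 3.

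**Figure D4:**
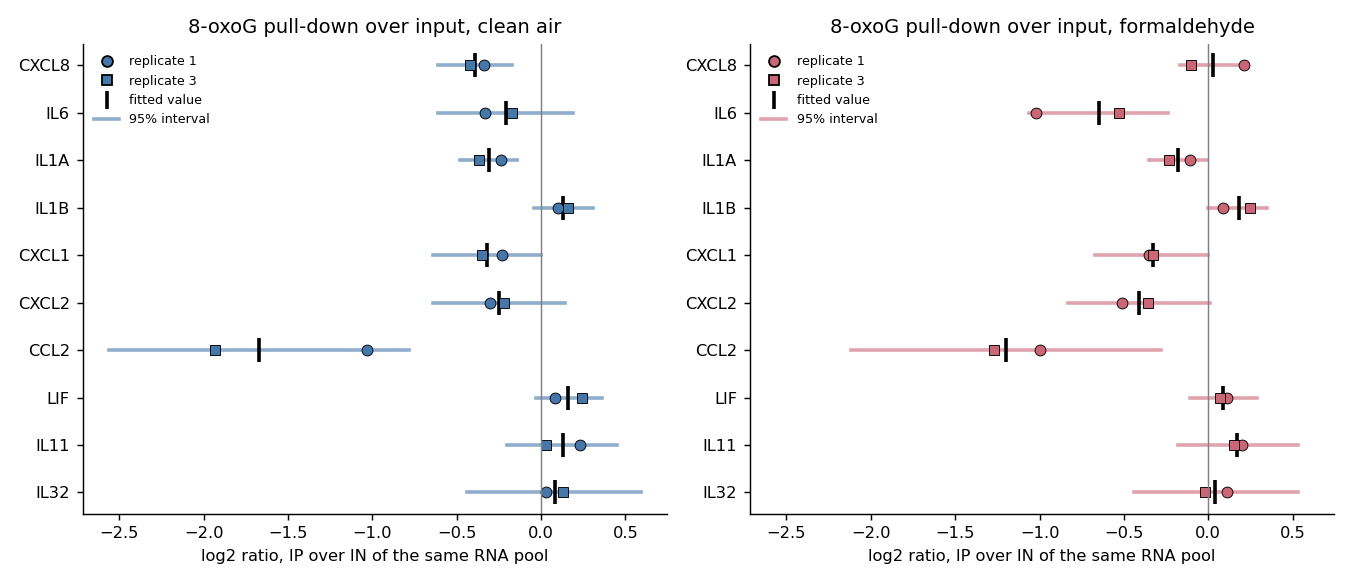
Log2 ratio of pulled-down over input CPM (x axis) for the 10 members in clean air (left) and formaldehyde (right), with circles and squares for the RNA pools numbered 1 and 3, ticks for the value fitted with the pool as a block and lines for its 95% interval. CCL2 lies farthest to the left in both panels, at -1.67 and -1.20, and IL1B, LIF and IL11 lie to the right of 0 in every pool.

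The difference between treatments in pull-down against input was tested as an interaction. No member and no gene among 18242 was called, and no member had an unadjusted p under 0.05, against 1.07% of all genes. DESeq2 on the same libraries called 3 genes and no member. With the pool block 0.110% of all genes were called higher, 0.0274% lower and 0.137% in either direction, and again no member. CXCL8, called lower with the pool block in clean air but not in formaldehyde, had an interaction of 0.42 with an interval of 0.12 to 0.72 and an adjusted p of 1.00, so that its ratios in the 2 treatments were not shown to differ. IL6 had -0.44 with an interval of -1.01 to 0.14, and CCL2 0.47 with -0.87 to 1.80.

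Some sequence features of the main transcripts varied together with these ratios. Each gene is described by 1 transcript, which held only 13.2% of the gene's counts for IL32 and 43.7% for IL6. CXCL8 (17.7% guanine), CCL2 (17.8%) and IL1A (18.6%), the genes called lower in clean air with the pool block, had the lowest guanine shares of the 10, with only 2.04%, 2.24% and 4.31% of genes lower. LIF, IL11 and IL32 had the highest, at 29.0%, 28.8% and 27.6%, against a median of 24.7% over 17934 genes with a sequence. Across the 10 members the guanine share and the log2 fold change of CA_IP against CA_IN had a Pearson correlation of 0.657, and across the 17934 genes 0.283. The correlation with log2 transcript length was 0.625 over the members and 0.180 over the genes, CCL2 being the shortest transcript at 741 bases. For FA_IP against FA_IN the correlations over the members were 0.573 with guanine and 0.707 with length, and across the 17934 genes 0.195 and 0.154. Genes of a library are not independent replicates, and 10 points that share libraries and neighbouring sequence describe these transcripts only.

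The pentamer ATTTA, the core of AU-rich decay elements, occurred 10 times in the main transcript of CXCL8, 10 times in CXCL2, 9 in IL11, 7 in LIF and 6 each in IL6, IL1B and CXCL1. IL1A held 5, CCL2 held 1 and IL32 none. Per kilobase CXCL2 held 8.97 and CXCL8 6.09, against a median of 0.989 over the genes. The longer form TTATTTATT was present in CXCL8, IL1B, CXCL1, CXCL2, LIF and IL11, and in 8.21% of genes. The sequences were those of GENCODE 44, whose lengths differ from the files' for all but CCL2 and IL32.

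Most members were measured through a single transcript. The main isoform held 100% of counts in IL1A, 98.4% in LIF, 97.6% in IL1B, 96.8% in CCL2, 96.6% in CXCL8, 96.4% in CXCL1 and 91.4% in CXCL2. IL11 was divided between ENST00000264563 (75.0%) and ENST00000585513 (22.2%). IL6 counts were spread over 4 isoforms of at least 10%, led by ENST00000258743 with 43.7%, whose share ran from 24.6% to 59.7% between libraries. IL32 counts were scattered over 35 listed isoforms, and the highest, ENST00000325568, held 13.2%. Of 71 listed isoforms of the members 20 could be tested, and edgeR called none in any of the 4 comparisons, the smallest adjusted p being 0.863.

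The partners of these cytokines gave few calls without pairing. Of 15 receptors and receptor antagonists 10 could be tested and none was called in any comparison by edgeR without pairing, 1 having an unadjusted p under 0.05 in clean-air pull-down. With the pool block 1 was called higher and 1 lower in clean-air pull-down, against 11.6% and 5.85% of all genes. IL6ST, the shared chain of the IL6 family, was the highest at 28.2 TPM in clean-air input, followed by the oncostatin M receptor OSMR at 7.28 TPM. Their log2 fold changes with formaldehyde in input were -0.12 and 0.12 (adjusted p = 0.945 and 0.947). Among 34 other airway cytokines and chemokines 24 could be tested, and 1 was called without pairing, MIF, a constitutively made cytokine. With the pool block 4 were lower in clean air and 3 in formaldehyde, against 5.85% and 4.60% of all genes lower. MIF was lower in pull-down than in input in clean air (log2 fold change -1.20, standard error 0.13, adjusted p = 0.00124) and in formaldehyde (-1.15, standard error 0.13, adjusted p = 0.00197). At 175 TPM it far exceeded the 10 members. IL18, an interleukin-1 relative at 25.1 TPM, had -0.58 and -0.65 in the same comparisons (adjusted p = 0.189 and 0.195).

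Of 11 genes of interleukin-1 processing and release 10 could be tested and 1 was called without pairing, in clean air, the calpain CAPN1, which was higher in pull-down (log2 fold change 0.42, standard error 0.08, adjusted p = 0.0462). It was not called after leaving out any 1 of the 8 libraries. With the pool block 2 genes of this list were higher in clean air and 2 in formaldehyde, against 11.6% and 5.45% of all genes higher. CAPN2 at 33.4 TPM and CASP4 at 25.4 TPM were the most abundant of the list and had log2 fold changes of 0.14 and 0.06 with formaldehyde in input. All 19 transcription factors and feedback regulators and all 12 AU-rich element binding and decay factors could be tested, and edgeR without pairing called none. With the replicate number as a block, edgeR called 1 factor higher and 1 lower for formaldehyde in input (smallest adjusted p = 0.0366). Over all 18242 genes that fit, which counts IN and IP of 1 pool as separate samples, called 14 higher and 244 lower. With the pool block 5 factors were higher and 1 lower in clean-air pull-down and 2 higher in formaldehyde pull-down, and 1 decay factor was higher and 3 lower in clean air and 2 lower in formaldehyde. The shares of all genes called in that fit were 17.4% in clean air and 10.1% in formaldehyde. At an unadjusted p under 0.05 the factors counted 3 in input, 3 in clean-air pull-down and 1 in formaldehyde pull-down, and the decay factors 1, 2 and 3, against 3.35%, 12.6% and 9.10% of all genes. The AP-1 subunits JUN and JUNB, the highest of the first list at 17.3 and 16.6 TPM, had log2 fold changes of 0.13 and -0.10 with formaldehyde. The decay factors KHSRP and HNRNPD, at 29.9 and 18.6 TPM, had 0.09 and 0.03. None of JUN, JUNB, KHSRP and HNRNPD was called by edgeR without pairing. The smallest adjusted p was 0.945 for formaldehyde in input and 0.250 over all comparisons (JUNB in clean-air pull-down).

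Between the libraries numbered 3 and 1 the lists moved less than the members. The median log2 ratio in input was 0.45 for the other cytokines and chemokines, 0.30 for the receptors, 0.23 for the interleukin-1 processing genes, 0.19 for the transcription factors and 0.05 for the decay factors, against 0.89 for the members. Both input groups were higher in replicate 3 for 14 of 24, 7 of 10, 7 of 10, 9 of 19 and 4 of 12 genes of these lists, and for 8 of 10 members, against 30.4% of all genes tested.

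Over the 8 libraries the members' mean profile ran from -0.73 in CA_IP replicate 1 to 0.62 in CA_IN replicate 3 on the centred log2 CPM scale. CXCL1 followed it most closely (Pearson correlation 0.982), then IL6 (0.977), CXCL2 (0.965) and IL1A (0.962), whereas IL11 (-0.0118) and IL32 (-0.200) did not. Each member is itself part of this mean profile, which by itself raises its correlation. Of 11232 other genes with a mean count of at least 100, the 5 most like this profile were PLCB4 (0.9839), PHLDB2 (0.9819), ATP8A1 (0.9813), NR4A1 (0.9793) and OLMALINC (0.9773). NR4A1, an immediate-early nuclear receptor, was at 4.09 and 7.38 CPM in CA_IN and at 5.41 and 7.46 CPM in FA_IN. PLCB4, a phospholipase C, was at 11.0 and 20.9 CPM in CA_IN and at 14.6 and 19.3 CPM in FA_IN. Both had the clean-air library numbered 1 lowest. The 8 points include 4 pairs of libraries from the same pool.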

How the data were processed

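RNA-seq libraries from input and 8-oxoG-immunoprecipitated RNA of BEAS-2B cells were analysed, 2 a group. The submitters trimmed reads with cutadapt, aligned them with STAR 2.6.0a to GRCh38 (Ensembl 94 in the study's methods) and deposited RSEM 1.2.25 expected counts per isoform. No strand option was named. The labels give 2 different clones for the antibody. The authors' 3 deposited tables of fold changes and p-values between groups, 2 of them identical, were not used.

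Expected counts were summed by gene, matched to GENCODE 44 (58207 of 58735 genes) and rounded. Genes with at least 10 counts in at least 2 libraries (18242) were tested with edgeR 4.0.16 (TMM, quasi-likelihood test, prior count 0.125, 1 mean per group over all 8 libraries, common dispersion 0.0190, R 4.3.3) and adjusted by Benjamini-Hochberg, with a limit of 0.05. DESeq2 1.42.0 was an alternative. TPM was recomputed from effective lengths. Input and immunoprecipitated RNA of a replicate were divided from 1 pool, per the study's methods, and the differences between replicates 3 and 1 correlated between IN and IP at 0.717 in CA and 0.564 in FA over 12640 genes, so pool-blocked values stand beside the unpaired ones. Replicate numbers came from file names and are not tied to an exposure day in the sources. Code was tested on simulated data. The 10 members and the lists were chosen with earlier results of these data known. Named genes were all members, listed genes called in a comparison (up to 4), the 2 highest of each list, isoforms of at least 10% and the 5 most like the mean profile. With 2 libraries a group, depth covers counting error only.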

Additional observations from a re-analysis of the deposited data

How the results depend on the processing

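The 4 unpaired comparisons called no member under the other tools, scalings, filters and prior counts tried, nor without any single library, apart from CCL2 in clean-air pull-down with no filter on low counts (1 member lower, log2 fold change -1.78, adjusted p = 0.00348). The cause was not tested. With the replicate number as a block, 2 members were lower in clean-air pull-down (CCL2, adjusted p = 0.0183, and IL1A, adjusted p = 0.0380), and no member was called in the other comparisons. The sources do not tie a number to an exposure run, though clean air ran in parallel with formaldehyde and differences between replicates 3 and 1 correlated between CA_IN and FA_IN at 0.534 over 12640 genes. In that fit the formaldehyde intervals in input narrowed to -0.03 to 0.89 for CXCL8, -0.62 to 0.44 for CXCL1 and -0.43 to 0.40 for CXCL2. IL1B (log2 fold change 0.31), IL1A (0.21) and IL32 (0.48) had unadjusted p under 0.05 but none passed adjustment (edgeR, smallest adjusted p = 0.132). The fit has no pool term and counts IN and IP libraries of 1 pool as separate samples. Its intervals and calls for formaldehyde can thus understate the spread between cultures. Over all genes the formaldehyde calls in input were 0 higher and 1 lower without a block, 14 and 244 with the replicate block, 21 and 79 with no filter and 0 and 3 by DESeq2. For clean-air pull-down they were 27 and 322, against 1235 and 706 with the replicate block and 147 and 539 with no filter, and for formaldehyde pull-down 6 and 268, against 367 and 586 and 63 and 515. For the difference between treatments the counts were 0 and 0, against 3 and 0 with the replicate block, 29 and 23 with no filter and 3 and 0 by DESeq2.

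With the block by RNA pool, 3 members were lower in clean air and 1 in formaldehyde. Alternatives to it were chosen after seeing the data. DESeq2 size factors gave 3 and 1. Library size gave 1 lower and 2 higher in clean air, and 1 higher and none (0) lower in formaldehyde. Leaving out a pool gave 0 to 3 lower in clean air and 0 to 1 in formaldehyde. DESeq2 left 6 members with no adjusted p in clean-air pull-down.

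The level of the members, summed in clean-air input, was 22.6 TPM, 15.0 to 30.3 without a library, and 52.2 with annotated in place of effective lengths. Members lower in FA_IN in both replicate numbers were 1 with TMM and 2 with library size.

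Genes called in at least 1 comparison, receptors (0): library size 1, replicate block 1, pool block 2. Other cytokines (1): 2 with both DESeq2 fits, with no filter, with the replicate block and with DESeq2 blocked, and 4 with the pool block. Interleukin-1 processing (1): 0 with DESeq2 on 4 libraries, DESeq2 size factors, no filter, a mean count of 50, edgeR on 4 libraries or any library left out (0 to 0), and 2 with library size or any of the 3 blocked fits. Transcription factors (0): library size 1, replicate block 4, DESeq2 blocked 4, pool block 6. Decay factors (0): replicate block 1, DESeq2 blocked 2, pool block 5.

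Of 902 alternative log2 fold changes of members, none of them called in the unpaired fit, 26 were called, 830 moved by no more than their standard error and 46 moved further without a call. Of the 902, 110 had the other sign. CCL2 rests on 3 to 74 counts a library.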
